A study of Mus musculus with 2 samples.

Results

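The 7 genes described here encode the ligands and receptors of the interleukin-1 (IL-1) system: the agonist ligands Il1a and Il1b, the receptor antagonist Il1rn, the IL-36 ligand Il1f9 (IL-36 gamma, also called Il36g), the signalling receptor Il1r1, the decoy receptor Il1r2 and the co-receptor Il1rap. They were chosen by name, for their place in this pathway, and all 7 were found among the 35208 gene rows of the single-cell matrix. The cells were taken from inflamed ears of wild-type (WT) and of Ccr2-/- mice, both on the BALB/c strain, in which IgE-dependent chronic allergic inflammation (IgE-CAI) had been raised. The mice had received 300 µg of anti-TNP IgE into a vein and, on the next day, 10 µg of TNP-OVA into the ear skin, and the ears were taken on days 3 and 5 after that challenge. The 4 groups (WT day 3, WT day 5, Ccr2-/- day 3, Ccr2-/- day 5) were each marked with a hashtag antibody and sequenced together as 1 cDNA library and 1 hashtag library. Every group had the IgE and the antigen. Each group was 1 pool. The study used male mice of 7 to 12 weeks, and the number of mice in a pool is not given in the sources used here. The deletion is carried by all cells of the Ccr2-/- mice, and the cells were density-separated after enzyme digestion of the ear.

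IL-1 alpha and IL-1 beta bind the receptor encoded by Il1r1, which then recruits the co-receptor encoded by Il1rap and signals through MyD88 and NF-kB. The antagonist encoded by Il1rn occupies the same receptor without recruiting the co-receptor, and the decoy receptor encoded by Il1r2 binds the agonists but lacks the domain needed to signal. IL-36 gamma uses another receptor but the same co-receptor. In skin, resident cells such as fibroblasts and keratinocytes are known to answer IL-1 with chemokines that attract neutrophils, and neutrophils are known as a source of IL-1 beta.

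In the annotation of the mouse genome build GRCm38, the 4 ligand genes lie on chromosome 2: Il1a at chr2:129299610-129309972 and Il1b at chr2:129364570-129371139 on the minus strand, Il1rn at chr2:24336853-24351494 and Il1f9 at chr2:24186476-24193568 on the plus strand. Both receptor genes lie on the plus strand of chromosome 1, Il1r2 at chr1:40074079-40125231 and Il1r1 at chr1:40225080-40317257, and Il1rap lies at chr16:26581704-26730117 on the plus strand. The 250 bases before the RefSeq transcript start are shown for 5 starts: those of both agonists, the antagonist and the decoy, whose transcripts were found together in neutrophil-like cells, and the second start of Il1r1, the only one of the 10 starts read that held an NF-kB match. The windows were searched on both strands for the NF-kB motif (by its usual consensus), for TTGCNNAA (C/EBP) and for TGANTCA (AP-1), which are bound by factors known to act at inflammatory genes. Capitals mark a match.
Il1a, GRCm38.p6 chr2:129309973-129310222, minus strand: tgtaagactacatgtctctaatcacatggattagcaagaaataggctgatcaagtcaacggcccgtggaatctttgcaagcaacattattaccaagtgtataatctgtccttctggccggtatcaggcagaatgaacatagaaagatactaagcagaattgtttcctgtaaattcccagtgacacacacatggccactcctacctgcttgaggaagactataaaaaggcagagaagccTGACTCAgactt
Il1b, GRCm38.p6 chr2:129371140-129371389, minus strand: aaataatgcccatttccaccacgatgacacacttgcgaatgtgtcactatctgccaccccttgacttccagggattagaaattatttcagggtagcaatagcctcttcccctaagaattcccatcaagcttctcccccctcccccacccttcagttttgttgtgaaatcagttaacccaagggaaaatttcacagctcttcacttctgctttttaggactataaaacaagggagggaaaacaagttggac
Il1rn, start 1, GRCm38.p6 chr2:24336610-24336859, plus strand: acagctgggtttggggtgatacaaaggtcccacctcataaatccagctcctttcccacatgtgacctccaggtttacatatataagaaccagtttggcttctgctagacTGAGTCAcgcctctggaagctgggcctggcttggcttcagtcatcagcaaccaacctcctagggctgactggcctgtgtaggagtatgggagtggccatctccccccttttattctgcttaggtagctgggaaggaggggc
Il1r1, start 2, GRCm38.p6 chr1:40266336-40266585, plus strand: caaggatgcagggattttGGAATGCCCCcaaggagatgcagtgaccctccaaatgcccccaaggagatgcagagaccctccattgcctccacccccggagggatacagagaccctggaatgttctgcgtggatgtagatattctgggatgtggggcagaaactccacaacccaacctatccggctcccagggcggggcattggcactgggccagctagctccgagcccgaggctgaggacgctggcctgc
Il1r2, GRCm38.p6 chr1:40085843-40086092, plus strand: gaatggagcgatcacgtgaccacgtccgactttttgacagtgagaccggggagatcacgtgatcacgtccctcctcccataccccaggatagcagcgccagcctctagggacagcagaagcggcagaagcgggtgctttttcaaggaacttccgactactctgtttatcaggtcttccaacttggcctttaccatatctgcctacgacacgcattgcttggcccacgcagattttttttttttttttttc
Of the 5 windows shown, Il1a held an AP-1 match 12 to 6 bases before the start and Il1rn start 1 held one 141 to 135 bases before it. The second start of Il1r1 held the NF-kB match 232 to 223 bases before it, and the windows of Il1b and Il1r2 held none of the 3 motifs. Among the starts not shown, Il1r1 start 1 held a C/EBP match 133 to 126 bases before it, and those of Il1f9, Il1rap and Il1rn starts 2 and 3 held no match. Of 32851 mouse promoter windows of 250 bases, 3.90% held an NF-kB match, 9.56% a C/EBP match and 6.75% an AP-1 match. A match describes the letters and not a bound site.

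Of 8953 barcodes, 7118 cells were kept and given to a pool: 1543 in WT day 3, 1037 in WT day 5, 2191 in Ccr2-/- day 3 and 2347 in Ccr2-/- day 5, with 68064673 to 162572556 reads per pool. Levels are given as reads of the gene per 1000000 reads (CPM) after summing the reads of all cells of a type in a pool, with exact Poisson 95% intervals where shown. The reads are not molecules, so intervals and floors cover counting error only. Cell types were named from marker genes, with the 7 genes kept out of the clustering, and "-like" marks a name that rests on transcripts alone. The pools held 51, 6, 402 and 785 neutrophil-like cells, 477, 453, 131 and 89 monocyte-macrophage-like (Mo-Mac-like) cells, and 361, 283, 743 and 568 fibroblast-like cells, in the order of pools above, which holds for all lists of 4 values below. Ccr2, the targeted gene, was at 944, 680, 86.9 and 28.1 CPM in Mo-Mac-like cells. Shares at 5000 reads cover only the cells with at least that many reads, each thinned to 5000. Of the neutrophil-like cells, 45, 6, 368 and 721 had that depth. Reads of one cell type were found in cells of others: after thinning, 50.0% to 63.6% of the neutrophil-like cells in a pool held Col1a1, a collagen gene. For ligand genes the share of fibroblast-like cells with a read is therefore given beside each share. Of 2 neutrophil genes, S100a8 had a read in 1.99% to 6.74% of fibroblast-like cells after thinning, and S100a9 in 6.27% to 7.98%.

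**Figure D1:**
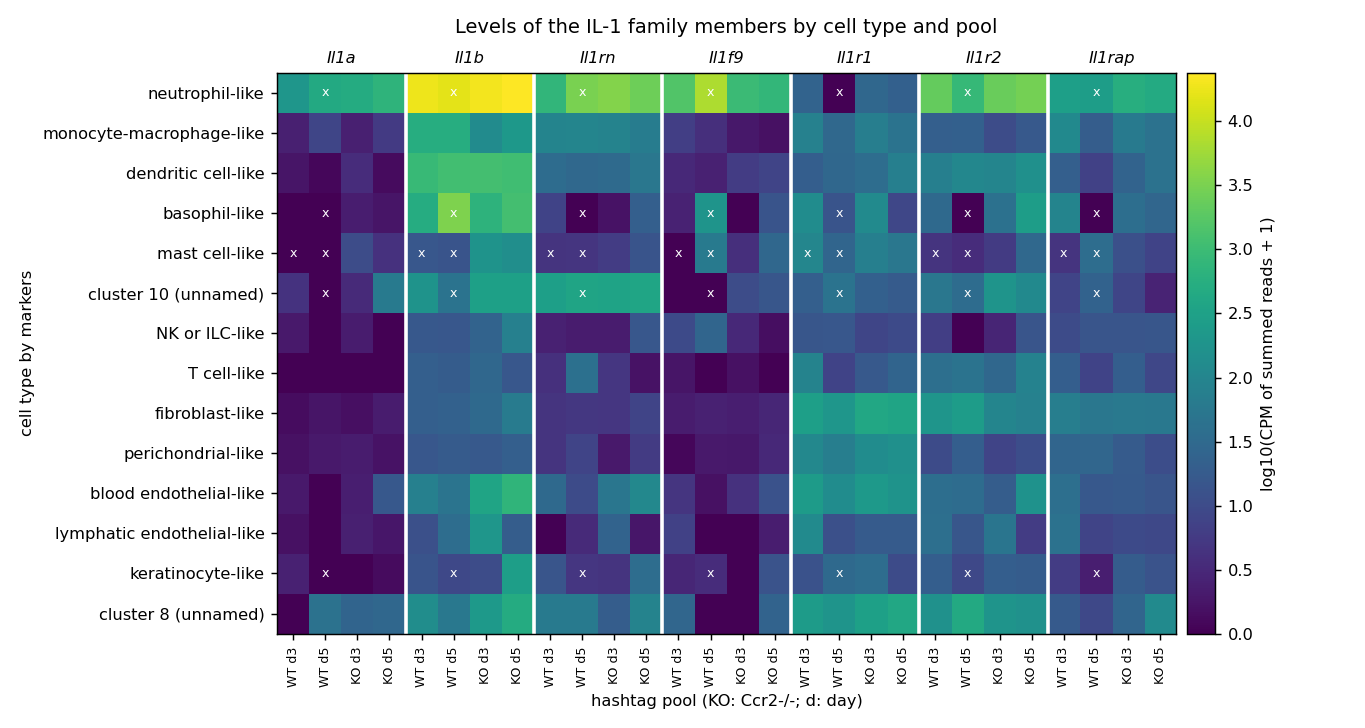
Levels of the 7 genes (log10 of CPM + 1, colour) by cell type (rows) and pool (columns, 4 per gene; KO is Ccr2-/-, d is day); an x marks fewer than 20 cells. The agonists, the antagonist, Il1f9 and the decoy Il1r2 are highest in the neutrophil-like row, and Il1r1 is highest in the fibroblast-like and neighbouring stromal rows.

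Il1b, the agonist that is made as a precursor and cut by caspase-1, was at 18784, 16043, 20369 and 23956 CPM in neutrophil-like cells. At 5000 reads per cell, 100%, 100%, 98.4% and 99.4% of these cells had a read of Il1b, against 9.40%, 4.66%, 7.43% and 8.87% of fibroblast-like cells. Without thinning, at a median of 8555 to 11792.5 reads in neutrophil-like and 68501 to 136410 reads in fibroblast-like cells, the shares were 98.5% to 100% and 49.5% to 71.1%. Nearly every neutrophil-like cell thus held Il1b in all 4 pools, although the WT day 5 value came from 6 cells. Dendritic cell-like (DC-like) cells came next, at 877, 1152, 1187 and 1098 CPM. Basophil-like cells reached 512, 670 and 1199 CPM in the 3 pools with at least 20 of them, a range that overlapped that of the DC-like cells, and up to 57.3% of these reads came from a single cell.

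Il1a, the agonist that is active without cleavage and is released when cells die, was at 203, 465, 486 and 712 CPM in neutrophil-like cells. The WT day 5 value came entirely from 1 of the 6 cells, with 38 reads. At 5000 reads per cell 11.1%, 16.7%, 20.7% and 24.8% of neutrophil-like cells had a read of Il1a, against 0%, 0%, 0.405% and 0.887% of fibroblast-like cells (unthinned 13.7% to 26.0% and 3.88% to 8.80%). Mo-Mac-like cells were at 1.41, 7.33, 1.40 and 4.48 CPM. Keratinocyte-like cells, a known source of IL-1 alpha in skin, were few (29, 5, 21 and 20 cells), and held 6, 0, 0 and 1 reads of Il1a.

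Il1rn, the receptor antagonist, was at 766, 3143, 3737 and 2633 CPM in neutrophil-like cells. The WT day 3 value was the lowest, and its interval of 691 to 847 CPM did not reach those of the Ccr2-/- pools, which began at 2598. The share of neutrophil-like cells with a read at 5000 reads was 51.1%, 50.0%, 86.4% and 78.4%, against 1.71%, 1.79%, 0.946% and 2.66% of fibroblast-like cells (unthinned 50.0% to 85.6% and 13.8% to 23.6%). These intervals do not cover variation between mice, and the neutrophil-like cells could not be fitted because WT day 5 held under 20 of them. The next highest Il1rn level was in an unnamed cluster led by Retnlg, Alox15 and Ccr3, at 296, 358, 349 and 379 CPM, although 83.9% of its WT day 5 reads came from a single cell of 19. Mo-Mac-like cells were at 94.2, 96.1, 88.6 and 69.3 CPM, below that cluster and above DC-like cells (34.5, 29.1, 31.1 and 52.8 CPM) in each pool. Blood endothelial-like cells, at 30.1, 8.97, 52.4 and 110 CPM, were above Mo-Mac-like cells on Ccr2-/- day 5.

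Il1f9 was at 1546, 7007, 984 and 786 CPM in neutrophil-like cells. In WT day 5, 99.5% of the reads came from a single cell, so the value of 7007 describes that cell. At 5000 reads per cell 44.4%, 33.3%, 41.6% and 35.4% of neutrophil-like cells had a read, against at most 0.946% of fibroblast-like cells (unthinned 33.3% to 43.1% and at most 8.80%). Mo-Mac-like cells were at 5.38, 2.84, 0.932 and 0.560 CPM.

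The neutrophil-like cells formed 2 clusters, which differed in their IL-1 genes. Cluster 3 was led by S100a9, Stfa2l1 and Cxcr2 and held 37, 2, 173 and 415 cells, and cluster 4 was led by Hcar2, Clec7a, Ccrl2 and Tnf and held 14, 4, 229 and 370 cells. In the Ccr2-/- pools, the only ones with at least 20 cells in both, Il1a was at 192 and 155 CPM in cluster 3 and at 716 and 1295 CPM in cluster 4. Il1rn was at 2662 and 1932 CPM in cluster 3 and at 4583 and 3366 CPM in cluster 4. Il1b had the opposite order, with 21907 and 25382 CPM in cluster 3 against 19159 and 22464 CPM in cluster 4, and so had Il1f9, with 1157 and 1042 CPM against 847 and 517 CPM. The share of Ccr2-/- cells with a read of Il1a at 5000 reads was 10.9% and 9.41% in cluster 3, against 27.8% and 41.3% in cluster 4. These are differences between clusters of the same libraries and carry no test.

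**Figure D2:**
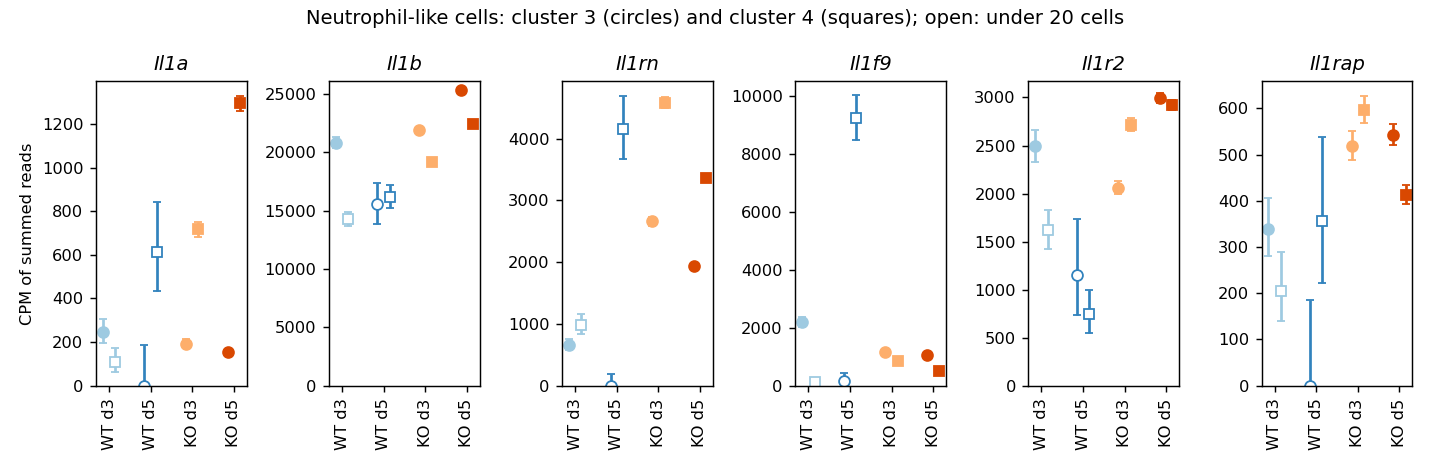
CPM of summed reads (y axis, from 0, a scale for each gene) of 6 genes in neutrophil-like cluster 3 (circles) and cluster 4 (squares) in the 4 pools (x axis), with exact Poisson 95% intervals; open symbols have under 20 cells. In both Ccr2-/- pools Il1a and Il1rn are higher in cluster 4, and Il1b and Il1f9 are higher in cluster 3.

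The balance of antagonist to agonist was measured as the share of Il1rn in the reads of Il1a, Il1b and Il1rn. In whole pools this antagonist share was 10.8%, 12.5%, 15.0% and 9.72%, and the WT and Ccr2-/- pools overlapped. The mean of the Ccr2-/- pools minus that of the WT pools was 0.725 percentage points (exact two-sided permutation over the 4 pools, p = 1, smallest possible p = 0.333). Divided by the length of the longest annotated transcript of each gene, the share was 6.03%, 7.07%, 8.61% and 5.45%. In neutrophil-like cells the read share was 3.88%, 16.0%, 15.2% and 9.64%, so that WT day 3 stood below the other pools. In Mo-Mac-like cells it was 15.1%, 15.1%, 40.4% and 23.8%, higher in both Ccr2-/- pools by a mean of 17.0 percentage points (exact permutation p = 0.333, the smallest this design allows). That value rests in part on few cells and on the mix of clusters: on Ccr2-/- day 3, 6 cells of Mo-Mac-like cluster 16 (led by Rsad2 and Ly6c2) gave 55.7% of the Il1rn reads. Within cluster 2 (led by Arg1 and Retnla) the share was 18.0%, 13.5%, 23.2% and 20.9%, higher in both Ccr2-/- pools. Within cluster 12 (led by C1qa and Cd209b) it was 53.0%, 43.8%, 39.8% and 31.3%, lower in both Ccr2-/- pools. The WT day 3 value there rests on few reads, 35 of Il1rn, 30 of Il1b and 1 of Il1a. In fibroblast-like cells the share was 14.9%, 15.9%, 11.2% and 9.25%, a difference of -5.17 percentage points (exact permutation p = 0.333). After thinning, 0.946% to 2.66% of the fibroblast-like cells in a pool had a read of Il1rn and 4.66% to 9.40% of Il1b. For the neutrophil genes S100a8 and S100a9 these ranges were 1.99% to 6.74% and 6.27% to 7.98%. The part of free RNA from other cell types in the fibroblast-like antagonist share was not tested.

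Agonist and antagonist were found in the same neutrophil-like cells. Of the Ccr2-/- day 3 neutrophil-like cells with an Il1a read at 5000 reads (76 of 368), 96.1% also had an Il1rn read, against 83.9% of the cells without Il1a. On day 5 (179 of 721) the shares were 86.6% and 75.6%. All of these Il1a-positive cells had an Il1b read as well (76 and 179), but so had nearly all neutrophil-like cells of these pools (362 of 368 and 717 of 721). Il1a and Il1rn were both higher in cluster 4, and the pair was not compared within clusters. Within the pair of Il1a and Il1rn, Il1rn gave 79.1%, 87.1%, 88.5% and 78.7% of the reads in neutrophil-like cells.

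Il1r1, the signalling receptor, was highest in stromal cells. Fibroblast-like cells were at 298, 196, 414 and 360 CPM, blood endothelial-like cells (a cluster whose leading gene was the pericyte gene Rgs5) at 253, 135, 223 and 179 CPM, and perichondrial-like cells at 109, 74.9, 132 and 157 CPM. The ranges of the fibroblast-like and blood endothelial-like cells overlapped across pools, and within each pool the fibroblast-like value was the higher. That order depended on the processing. Blood endothelial-like cells led on Ccr2-/- day 5 without cells over 100000 reads. They also led on WT day 5 as a mean over cells of CPM, and by share of cells with a read at 2000 reads per cell. At Leiden resolution 2, pericyte or smooth muscle-like cells led on WT day 3. An unnamed cluster of shallow cells led by Jun, Klf9 and Egr1 was at 251, 181, 304 and 423 CPM. Its best marker list was that of fibroblasts, with 7 of 7 markers up, and its low depth kept it unnamed. Neutrophil-like cells were at 24.1, 0, 28.3 and 20.8 CPM, where the 0 reads of WT day 5 allow up to 36.7 CPM (3 reads). At 5000 reads, 49.0%, 41.9%, 64.5% and 61.5% of fibroblast-like cells had a read of Il1r1, against 2.22%, 0%, 4.08% and 4.30% of neutrophil-like cells (unthinned 73.5% to 89.5% and 0% to 8.46%).

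Il1r2, the decoy receptor, was highest in neutrophil-like cells, at 2218, 844, 2429 and 2957 CPM, and 73.3%, 66.7%, 84.8% and 89.5% of these cells had a read at 5000 reads (unthinned 66.7% to 90.4%). The low value was again that of the 6 WT day 5 cells. Fibroblast-like cells were at 190, 267, 96.2 and 82.3 CPM, with both Ccr2-/- pools below both WT pools. DC-like cells, at 77.7, 107, 96.9 and 158 CPM, overlapped the fibroblast-like range, and Mo-Mac-like cells were lower, at 20.1, 21.4, 9.60 and 16.0 CPM. At 5000 reads the share of fibroblast-like cells with a read of Il1r2 was 36.2%, 39.4%, 25.3% and 28.2%, against 8.06%, 4.76%, 4.60% and 6.76% of T cell-like cells (unthinned 64.0% to 68.7% in fibroblast-like cells).

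Fibroblast-like cells formed 3 clusters that differed in the pair of receptors. Cluster 0, led by Ccl11, Reg1, Reg3g and Il13ra2, had Il1r1 at 404, 257, 470 and 401 CPM and Il1r2 at 78.1, 74.2, 69.2 and 49.3 CPM. Cluster 1, led by Scara5 and Dpt, had Il1r1 at 177, 164, 226 and 210 CPM and Il1r2 at 327, 368, 195 and 215 CPM. Cluster 0 thus had the higher Il1r1 and cluster 1 the higher Il1r2 in all 4 pools. Cluster 13, led by Gldn and Apcdd1, had Il1r2 at 240, 446, 151 and 103 CPM. Cluster 0 made up 27.4%, 17.3%, 59.6% and 59.7% of the fibroblast-like cells and cluster 1 made up 53.2%, 73.1%, 31.6% and 31.3%, so the mix of fibroblast-like cells moved with the genotype.

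The decoy share, that of Il1r2 in the reads of Il1r1 and Il1r2, was 38.9%, 57.6%, 18.9% and 18.6% in fibroblast-like cells. The Ccr2-/- pools lay below the WT pools by a mean of 29.5 percentage points (exact two-sided permutation p = 0.333, the smallest possible with 4 pools). Within cluster 1 the decoy share was 64.8%, 69.1%, 46.4% and 50.6%, and within cluster 0 it was 16.2%, 22.4%, 12.8% and 10.95%, lower in both Ccr2-/- pools in each cluster. Per length of the longest transcript, the share in all fibroblast-like cells was 72.3%, 84.8%, 48.8% and 48.4%. In neutrophil-like cells it was 98.9%, 100%, 98.8% and 99.3% of the reads. In whole pools it was 37.3%, 55.4%, 31.2% and 48.2%, with overlap between genotypes and a difference of -6.64 percentage points (exact permutation p = 0.667). When a pool was instead summarised as the mean CPM over cells, where deep and shallow cells count alike, the whole-pool decoy share was 57.6%, 62.4%, 76.8% and 90.4% and the difference had the opposite sign, 23.6 points (exact permutation p = 0.333). It was 18.2 points when cells over 100000 reads were left out. That filter took the fibroblast-like cells from 361, 283, 743 and 568 to 241, 186, 293 and 214. The parts of depth and of cell type in the direction of the whole-pool decoy share were not tested.

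**Figure D3:**
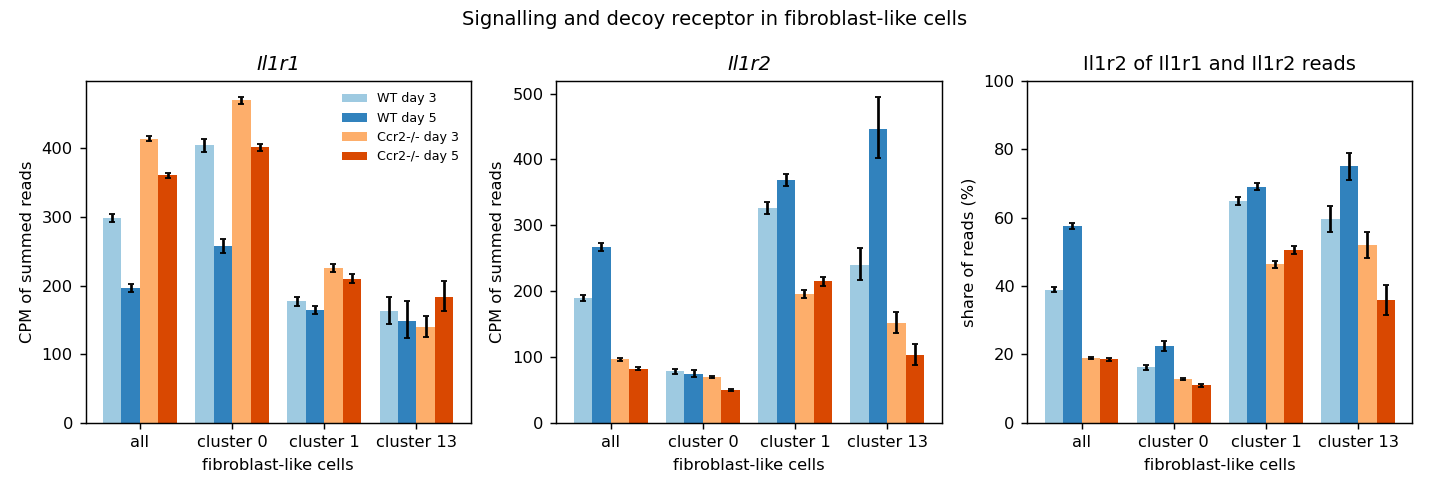
Il1r1 and Il1r2 (CPM of summed reads, exact Poisson 95% intervals) and the share of Il1r2 in the reads of both receptors (percent, exact binomial 95% intervals) in all fibroblast-like cells and in their clusters 0, 1 and 13, with a bar for each pool. Il1r2 is higher in cluster 1 than in cluster 0, and the share is lower in both Ccr2-/- pools than in both WT pools in every panel group.

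Il1rap, the co-receptor shared by IL-1, IL-33 and IL-36 receptors, was at 297, 269, 563 and 479 CPM in neutrophil-like cells, with a read in 24.4%, 33.3%, 48.4% and 46.3% of them at 5000 reads. Fibroblast-like cells were at 74.0, 53.7, 57.5 and 55.7 CPM, and the genotypes overlapped. Mo-Mac-like cells were at 121, 18.2, 63.3 and 43.8 CPM, so that the highest and lowest values were those of the WT pools. In Mo-Mac-like cluster 2, led by Arg1 and Retnla, the values were 131, 20.7, 127 and 87.5 CPM. The 5000-read share in Mo-Mac-like cells was 23.3% on WT day 3 and 7.14% on WT day 5.

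The cells that gave the reads of each gene changed with the genotype (the plot of read sources). In WT pools Mo-Mac-like cells gave 47.6% and 64.7% of the Il1b reads and 70.0% and 80.6% of the Il1rn reads, whereas in Ccr2-/- pools neutrophil-like cells gave 88.2% and 90.1% of the Il1b reads and 89.8% and 89.4% of the Il1rn reads. DC-like cells gave 14.9% and 24.6% of the Il1b reads in WT. Of the 271 Il1a reads on WT day 5, Mo-Mac-like cells gave 196 and neutrophil-like cells gave 38. On WT day 3 neutrophil-like cells gave the most of the 176 Il1a reads, and Mo-Mac-like cells gave 38. In Ccr2-/- pools neutrophil-like cells gave 2215 of 2372 Il1a reads on day 3 and 5944 of 6240 on day 5. Neutrophil-like cells gave 73.9%, 72.8%, 95.4% and 93.3% of the Il1f9 reads. Fibroblast-like cells gave 66.5%, 76.3%, 91.7% and 87.8% of the Il1r1 reads, and 38.7%, 40.2%, 69.0% and 62.2% of the reads of all genes. Of the Il1r2 reads, fibroblast-like cells gave 71.2% and 83.6% in WT but 47.0% and 21.5% in Ccr2-/-, where neutrophil-like cells gave 48.3% and 70.1%. Mo-Mac-like cells gave 48.9% of the Il1rap reads on WT day 3 and 3.05% to 21.7% in the other pools. The numbers of recovered cells moved as well. Mo-Mac-like cells made up 30.9%, 43.7%, 5.98% and 3.79% of the cells of a pool, with a median of 48186, 48049, 60688 and 64909 reads per cell. Neutrophil-like cells made up 3.31%, 0.579%, 18.3% and 33.4% of the cells.

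**Figure D4:**
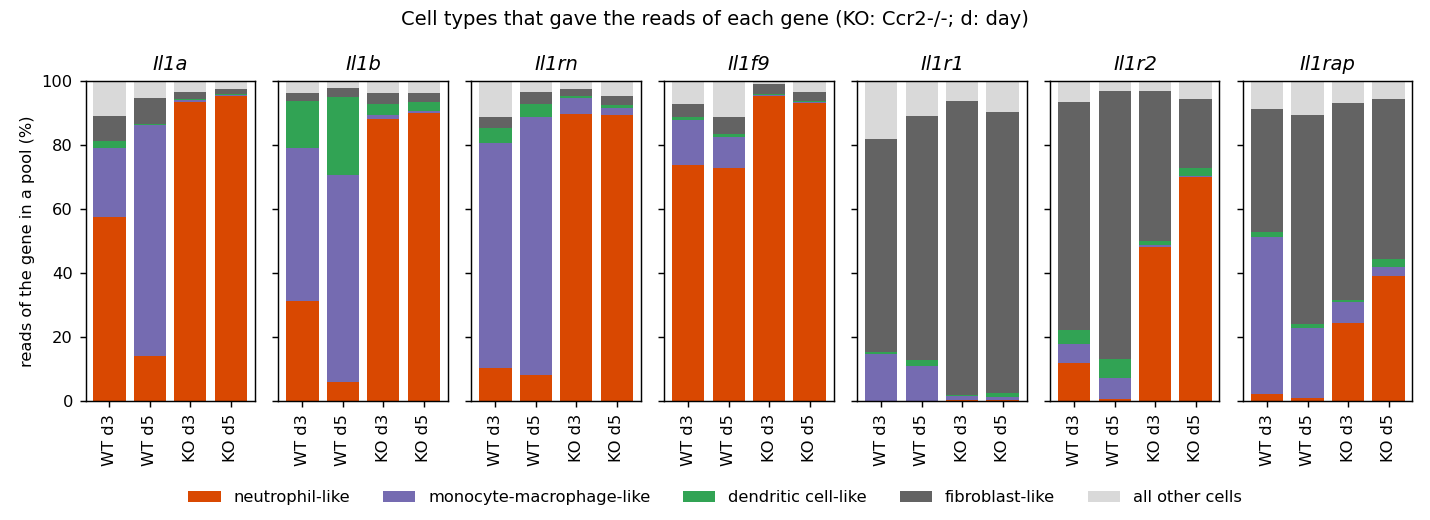
Share of each gene's reads in a pool (y axis, percent) that came from neutrophil-like, monocyte-macrophage-like, dendritic cell-like, fibroblast-like and all other cells, with a bar for each of the 4 pools (KO is Ccr2-/-, d is day). In WT, monocyte-macrophage-like cells give the largest share of the Il1b and Il1rn reads among the groups drawn (47.6% of Il1b on day 3), and in Ccr2-/- neutrophil-like cells do.

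In whole pools all 7 genes had a higher fitted level in Ccr2-/-, and none passed the test. Genotypes were compared over both days with edgeR's quasi-likelihood test, with day as a term, 1 pool per genotype and day and 1 residual degree of freedom; p-values were adjusted over all genes tested, and since the number of mice is not given they measure the spread between pools. In all cells 0 of 23697 genes passed an adjusted p of 0.05 (0%), 5247 had an unadjusted p below 0.05, and DESeq2 called 2643. Il1a was at 1.97, 3.98, 14.6 and 42.1 CPM (log2 fold change 3.18 ± 0.18, SE, adjusted p = 0.0814), with both Ccr2-/- pools above both WT pools. Il1b was at 334, 324, 648 and 1497 CPM (1.61 ± 0.33, adjusted p = 0.13) and Il1rn at 40.5, 46.9, 117 and 166 CPM (1.71 ± 0.11, adjusted p = 0.0814). Il1f9 was at 11.7, 11.6, 28.9 and 47.4 CPM (1.71 ± 0.20, adjusted p = 0.0876). Among the receptors, Il1r1 was at 173, 104, 311.7 and 255 CPM (1.11 ± 0.13, adjusted p = 0.0868) and Il1r2 at 103, 128, 141 and 238 CPM (0.70 ± 0.13, adjusted p = 0.115). Il1rap, at 74.2, 33.0, 64.4 and 69.2 CPM, overlapped between genotypes (0.46 ± 0.33, adjusted p = 0.50). DESeq2 called 6 of the 7, all but Il1rap. Without cells over 100000 reads the fold change was 0.38 for Il1r1 and 1.74 for Il1r2, so that the order of the 2 receptors turned, and 4.17 for Il1a, 2.59 for Il1b, 2.74 for Il1rn and 2.51 for Il1f9. All fits with 1 pool left out also left out the day term. In them, the fold change ranged from 2.36 to 3.89 for Il1a and from 1.05 to 2.19 for Il1b. It ranged from 0.77 to 1.46 for Il1r1 and from 0.36 to 1.04 for Il1r2.

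In Mo-Mac-like cells Il1b was the only one of the 7 genes that passed the test, at 528, 533, 129 and 217 CPM, a log2 fold change of -1.61 ± 0.21 (SE, edgeR adjusted p = 0.0332). Of all 16465 genes tested there, 0.881% passed, 0.468% as higher and 0.413% as lower in Ccr2-/-. The share of these cells with an Il1b read at 5000 reads was 38.8%, 39.1%, 15.2% and 23.0% (unthinned 58.0% to 67.4%). The clusters that made up these cells moved with the genotype as well. Cluster 12, led by C1qa and Cd209b, held 11.3%, 17.7%, 51.9% and 44.9% of the Mo-Mac-like cells and was the lowest in Il1b, at 13.1, 105, 34.0 and 70.9 CPM. Cluster 2 held 69.0%, 79.0%, 43.5% and 48.3% of the cells, with Il1b at 382, 610, 220 and 431 CPM, and the Ccr2-/- day 5 value lay between those of the WT pools. Cluster 16, led by Rsad2 and Ly6c2, had Il1b at 1439 CPM on WT day 3 (94 cells) and held 15, 6 and 6 cells in the other pools. Within cluster 2 alone the fold change was -0.55 (adjusted p = 0.302) and within cluster 12 alone it was 0.32 (adjusted p = 0.828), so the call was lost within clusters. In these fits, which were added after the data were seen, 0.234% and 0.484% of all genes passed. The fits with 1 pool left out had no day term and 1 pool in a group, so only their fold changes are given. With all clusters together these were -1.58 without WT day 3 and -1.58 without WT day 5. Without Ccr2-/- day 3 and Ccr2-/- day 5 they were -1.25 and -1.96. The call was lost at -1.35 without cells over 100000 reads (edgeR adjusted p = 0.238). At -1.57 to -1.66 it was lost with library sizes only, with day left out, without Scrublet doublets and at Leiden resolution 0.5. At -1.60 to -1.82 it held with DESeq2, with no filter on low counts and at Leiden resolution 2. It also held in that range at a hashtag ratio of 10 and at a mitochondrial limit of 10%.

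Of the other members in Mo-Mac-like cells, Il1rn had a log2 fold change of -0.23 ± 0.20 (edgeR adjusted p = 0.634), and its Ccr2-/- day 3 level of 88.6 CPM rested on the 6 cells of cluster 16 that gave 55.7% of the reads. Il1r1, at 84.7, 29.0, 72.7 and 45.8 CPM, had 0.26 ± 0.26 (adjusted p = 0.679), and Il1r2 had -0.69 ± 0.34 (adjusted p = 0.365). Il1f9 had -2.38 ± 0.75 (adjusted p = 0.181).

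In fibroblast-like cells none of the 7 genes passed, and 0 of all 20032 genes tested did (0%; 3972 had an unadjusted p below 0.05, and DESeq2 called 1469). The receptors had the lowest adjusted p-values. Il1r2 had a log2 fold change of -1.33 ± 0.21 (edgeR adjusted p = 0.122) and Il1r1 of 0.69 ± 0.12 (adjusted p = 0.129), and neither pair of pools overlapped between genotypes. DESeq2 called both, and Il1b. In cluster 1 alone, a fit added after the data were seen, Il1r2 had -0.78 ± 0.12 (adjusted p = 0.205), and in cluster 0 alone it had -0.35 ± 0.16 (adjusted p = 0.679). Il1r1 had 0.46, 0.33 and 0.0072 in clusters 0, 1 and 13 alone (adjusted p = 0.635, 0.508 and 0.999), each below its value over all fibroblast-like cells, and 0.34 without cells over 100000 reads.

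Il1b was higher in both Ccr2-/- pools in 2 types of structural cells, and so was the neutrophil gene S100a8. In fibroblast-like cells Il1b was at 20.2, 21.5, 30.2 and 66.1 CPM (log2 fold change 1.11 ± 0.28, edgeR adjusted p = 0.159), and S100a8 at 7.13, 10.0, 15.9 and 27.2 CPM. In blood endothelial-like cells Il1b was at 80.1, 46.6, 364 and 740 CPM (3.07 ± 0.46, adjusted p = 0.295; 0 of all 13570 genes passed, 772 had an unadjusted p below 0.05, and DESeq2 called 107), and S100a8 at 53.2, 8.41, 289 and 381 CPM. In these cells Il1b was called in 5 of 14 alternatives, at 2.81 to 4.20: with DESeq2, with no filter on low counts, without WT day 3, without WT day 5 and without cells over 100000 reads. The part of free neutrophil RNA in these Il1b values was not tested. In DC-like cells, where 0.0227% of 13188 genes passed, Il1b had 0.18 ± 0.15 (adjusted p = 0.841) and Il1r1 had 1.19 ± 0.38 (adjusted p = 0.448), with 65.1% of its Ccr2-/- day 5 reads from a single cell.

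**Figure D5:**
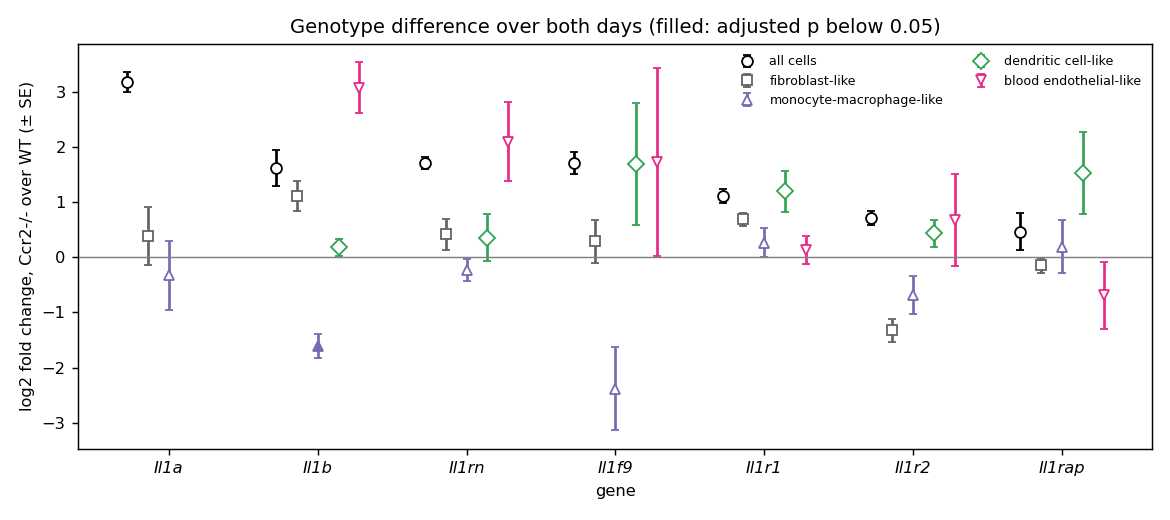
Log2 fold change of Ccr2-/- over WT over both days (y axis, ± SE, edgeR) for the 7 genes (x axis) in all cells and in 4 cell types; a filled symbol passed an adjusted p of 0.05. Il1b in monocyte-macrophage-like cells, at -1.61, is the only filled symbol, and Il1r2 lies below 0 in fibroblast-like cells but above 0 in all cells.

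Other genes of the pathway were followed in 4 lists. Of the IL-1 processing and release genes (inflammasome sensors, caspases, gasdermins and proteases), 14 of 15 were tested in all cells, and 0 passed in either direction, with a median log2 fold change of -0.41 against -0.0014 for all genes. At an unadjusted p below 0.05, 7 were lower and 3 higher, where 22.1% of all genes had such a p, and DESeq2 called 6 lower and 1 higher, where it called 11.2% of all genes. Pycard, the adaptor that joins inflammasome sensors to caspase-1, was at 46.9, 54.0, 16.4 and 20.6 CPM in all cells (-1.42 ± 0.10, edgeR adjusted p = 0.0814), and the sensor gene Nlrp1b at 4.54, 3.54, 0.966 and 1.68 CPM (-1.62 ± 0.37, adjusted p = 0.145). Mo-Mac-like cells gave 30.1%, 39.3%, 6.60% and 4.82% of all reads of a pool. The part of this mix in the whole-pool values of the 4 lists was not tested. The median of the processing list was -0.061 in fibroblast-like and -0.30 in Mo-Mac-like cells, and Pycard had -0.92 in fibroblast-like cells (edgeR adjusted p = 0.149). In Mo-Mac-like cells 1 of 13 passed: Casp4, the mouse caspase-11 that senses cytosolic lipopolysaccharide, fell from 110 and 114 CPM in WT to 29.0 and 48.4 CPM in Ccr2-/- (-1.53 ± 0.24, adjusted p = 0.0473). Of the 16 genes of IL-1 receptor signalling 0 passed in all cells, in fibroblast-like or in Mo-Mac-like cells (medians -0.13, 0.056 and -0.25). Ikbkb, the kinase that releases NF-kB, was at 59.9, 62.4, 35.1 and 36.6 CPM in all cells (-0.74 ± 0.10, adjusted p = 0.0935).

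Of the 17 IL-1 response genes, which are known targets of IL-1 but also of other signals, 0 passed in all cells, and the median was 0.87. At an unadjusted p below 0.05, 11 were higher and 2 lower (22.1% of all genes had such a p), and DESeq2 called 10, all higher (11.2% of all genes). Cxcl5, a neutrophil chemokine, was at 416, 219, 2072 and 1660 CPM (2.65 ± 0.16, edgeR adjusted p = 0.0814), and the acute-phase gene Saa3 at 1346, 389, 3100 and 5248 CPM (2.51 ± 0.73, adjusted p = 0.186). In fibroblast-like cells 0 of 17 passed, with a median of 0.35, and Csf3, the growth factor of neutrophils, was at 1.44, 0.365, 10.8 and 12.9 CPM (3.82 ± 0.59, adjusted p = 0.12). In Mo-Mac-like cells 2 of 17 passed, both higher in Ccr2-/-, where 0.881% of all 16465 genes passed in either direction. They were the monocyte chemokines Ccl2 (2282, 839, 7655 and 4568 CPM, 2.14 ± 0.19, edgeR adjusted p = 0.0148) and Ccl7 (3422, 888, 8800 and 5871 CPM, 2.09 ± 0.30, edgeR adjusted p = 0.0355), while the median of the list was -0.34. These values too cover a mix of Mo-Mac-like clusters that moved with the genotype.

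Of the other IL-1 family ligands and receptors 9 of 11 were in the matrix and 8 were tested in all cells, where 0 passed. Il18, the inflammasome-processed relative of Il1b, was at 18.2, 16.6, 3.89 and 5.58 CPM (-1.87 ± 0.21, edgeR adjusted p = 0.0864). Il1rl1, the receptor for IL-33, was at 58.8, 178, 30.6 and 54.9 CPM in fibroblast-like cells (-1.31 ± 0.22, adjusted p = 0.126). In fibroblast-like cluster 1 alone, an added fit in which 0.0122% of 16401 genes passed, Il1rl1 was called lower in Ccr2-/- (-4.40 ± 0.18, adjusted p = 0.00176).

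The genes whose levels followed each member most closely were found from log2(CPM + 1) over 51 units of 15 cell types and 4 pools with at least 20 cells, among 10736 genes; the units share 1 library, and the correlations are descriptions. Il1b went most with Clec7a, Clec4e and Trem1 (Pearson r 0.871, 0.862 and 0.850), receptors of myeloid cells. Il1rn went with Cd300lf, Arg2 and Clec7a (0.905, 0.889 and 0.880), and Il1a with Mrgpra2a, Cd300lf and B230303A05Rik (0.841, 0.820 and 0.810). Il1f9 went with Mrgpra2b, Gm39321 and Gm2511 (0.814, 0.803 and 0.801). All of these were highest in neutrophil-like cells. Il1r1 went with C1rb, C1ra and Cxcl12 (0.904, 0.885 and 0.877), complement and chemokine genes of stromal cells. Il1r2 and Il1rap had weaker partners, Tnfaip2, Plaur and Trib1 (0.717, 0.698 and 0.691) and Tnfsf13b, Mmp8 and Sfxn5 (0.752, 0.733 and 0.707). Among the members, Il1b and Il1rn were the closest pair (0.788), and Il1r1 had a Pearson r of 0.176 with Il1r2 and of -0.0759 with Il1b.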

How the data were processed

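One TAS-Seq cDNA library (BD Rhapsody beads) and 1 hashtag library were used. Trimming by the authors was with cutadapt and alignment with Bowtie2 (build GRCm38.p6), and they deposited raw read counts per gene and cell, and counts per hashtag and cell; the counts are reads, not molecules. The study's methods name an error correction for diffused RNA; whether the deposited counts were made before or after it is not given in the sources used here, so shares of cells with a read may be as counted or corrected. None was added here. A barcode was given to a pool where its hashtags together had at least 10 reads and the highest was at least 3 times the next. That ratio was taken after adding a pseudocount of 1 and dividing by the total of each hashtag. Cells over 20% mitochondrial reads or under 200 genes were left out, and 9 hashtag columns of no sample here were not used. Scrublet marked 51 kept cells (0.716%), which were kept. Scanpy 1.11.5 clustered the cells (2000 variable genes, 30 components, 20 neighbours, Leiden resolution 1) without the 7 genes and the pathway lists. A name needed 3 markers, a marker score above 0.5 and no other marker list with more of the leading genes. A shallow cluster with none of its own markers among its leading genes was left unnamed. Reads summed per pool and type (at least 20 cells in every pool) were tested with edgeR 4.0.16 (TMM, day and genotype), tested on simulated data, with DESeq2 1.42.0 as an alternative. Groups came from the sample labels. Shares were compared by exact permutation over pools. Named genes were the 7, for each list the called genes (at most 3 per fit) or otherwise the 2 with the largest fold change, not all of which are printed, the 3 genes most like each member, Ccr2, the free-RNA tracers and leading genes of clusters. Members and lists were chosen with earlier results of these data known. Promoters are from RefSeq (GRCm38.p6), and all 7 genes matched by symbol.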

Additional observations from a re-analysis of the deposited data

Results flagged for a closer look

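For 2 genes the pools moved in opposite directions in different cell types on both days; the differences between cell types were not tested. Il1b was higher in both Ccr2-/- pools in blood endothelial-like (log2 fold change 3.07) and fibroblast-like cells (1.11) and lower in both in Mo-Mac-like cells (-1.61). Il1r2 was higher in Ccr2-/- on each day in DC-like cells (0.43) and lower on each day in fibroblast-like (-1.33) and Mo-Mac-like cells (-0.69).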

How the results depend on the processing

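Over all cell types fitted, 1 call among the members was made (Il1b in Mo-Mac-like cells). The number was 0 with library sizes only, without the replicate block (day left out), without Scrublet doublets, at Leiden resolution 0.5, with cells gated one by one and, in fits added after the data were seen, with each fibroblast-like and Mo-Mac-like cluster on its own. It was 1 without cells over 100000 reads, but another: Il1b in blood endothelial-like cells (4.20, edgeR adjusted p = 5.8e-05), with the Mo-Mac-like call lost. It was 6 with no filter on low counts and 11 with DESeq2. Leaving out 1 pool gave 0 to 7 calls, with 7 without WT day 3. Calls over all genes rose as well with no filter on low counts, with DESeq2 and without WT day 3. In all cells they went from 0 of 23697 to 297 of 34392 with no filter and 2643 of 23697 with DESeq2. In fibroblast-like cells they went from 0 of 20032 to 253 of 31330 and 1469 of 20032. In Mo-Mac-like cells they went from 145 of 16465 to 1369 of 27647 and 698 of 16465. The gating left under 20 cells in most types, so only all cells and fibroblast-like cells could be fitted. The pools share a replicate number by day only. The whole-pool antagonist difference of 0.725 points ranged from -1.91 to 3.36 when 1 pool was left out, with -0.144 without WT day 3 and -1.91 without Ccr2-/- day 3. The decoy difference of -6.64 points was 18.2 without cells over 100000 reads, 23.6 as a mean over cells, and -15.7 to 2.39 when 1 pool was left out (2.39 without WT day 5, 1.87 without Ccr2-/- day 3). The fits with 1 pool left out also left out the day term. In them, the log2 fold change of Il1rap in all cells ranged from -0.097 (without WT day 5) to 1.02 (without WT day 3). In fibroblast-like cells it ranged from -0.36 (without WT day 5) to 0.11 (without WT day 3). Fold changes also turned to 0.055 and 0.21 for Il1rap in fibroblast-like cells (gated one by one, cluster 0 alone), to 0.32 for Il1b in Mo-Mac-like cluster 12, and to 0.39 and 0.074 for Il1rn in Mo-Mac-like cells (without cells over 100000 reads, cluster 2 alone). The causes were not tested. With 1 pool per genotype and day, the precision is limited by pools and not by depth, and neutrophil-like cells could not be tested.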
